A study of Caenorhabditis elegans with 18 samples.

Results

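The genes described here are the long intergenic noncoding RNA (lincRNA) genes of Caenorhabditis elegans, whose names are linc- followed by a number, together with tts-1, another long noncoding RNA gene. They were chosen by gene name alone, and 171 of the 46253 genes in the tables had such a name: 170 linc genes and tts-1. RNA was sequenced from whole worms of the wild-type N2 strain raised on plates with ascr#10, an ascaroside pheromone produced mainly by males, or on control plates with water. Starved first-stage larvae were put at 30 to 50 per plate at 20 °C, on 2.2 or 1.1 fg of ascr#10 depending on plate size, and males and delayed worms were taken away. There were 18 samples in 6 groups of 3. In the first collection, water worms and ascr#10 worms were taken at 50 h and at 58 h after synchronisation. In the second collection, new water worms and ascr#10 worms were taken at 58 h and sequenced, so that the 58 h exposure comparison was made in each collection. No group carries a mutation or a transgene, and samples of a group are called independent in the labels. One label field gives 58 h for every sample, and the ages used here are those of the sample descriptions.

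A lincRNA is a transcript made between protein-coding genes and not translated into a known protein. The linc genes of the worm were named from a genome-wide search for such transcripts, and for most of them no function is known. The transcript of tts-1 is abundant in dauer larvae, the arrested dispersal stage, and in long-lived daf-2 insulin receptor mutants. There its level depends on the transcription factor DAF-16, the RNA is found with ribosomes, and it lowers ribosome levels and is needed for the long life span.

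Most of these genes were barely detected. The median gene had a mean of 1.78 estimated counts over the 18 samples, 16 genes had no count in any sample, and 69 had a mean under 1. A mean of 10 or more was reached by 44 genes, and a mean of 100 or more by 10, of which tts-1 was highest at 3993. The 10 genes with a mean of 100 or more, called well measured here, were tts-1, linc-4, linc-5, linc-6, linc-7, linc-8, linc-9, linc-11, linc-15 and linc-22. A count in every sample was found for 53 genes. The filter on low counts kept 49 of the 171 genes for testing, and 39 of these 49 were not well measured. The other genes were left untested, and a low gene could pass the filter through the groups in which it was high. Between 41.8% and 69.0% of all counts assigned to the 171 genes in a sample came from tts-1.

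By annotation, all but 2 of the genes are lincRNAs, and those 2, tts-1 among them, are of the more general class ncRNA. The longest transcript of a gene ran from 101 to 4183 bases with a median of 454, and in 55 genes it had a single exon. Chromosome X holds 34 of the genes, as does chromosome II, followed by V with 33, IV with 26, and I and III with 22 each. Of the 10 well measured genes, 6 lie on X, as do 9 of the 49 tested. Despite the name, exons overlapped those of another annotated gene on the same strand in 33 cases and on the other strand in 26. Counts of such genes are uncertain, since reads may be shared with the overlapping gene and the strand setting used in counting is not given in the sources used here.

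On the scale of TPM (transcript abundance scaled for length and depth, which permits comparison between genes), linc-6 had the highest mean level of the 171 genes, 572 TPM, with tts-1 at 206 and linc-4 at 189. Next came linc-12 at 48.7 and linc-15 at 36.3. The remaining 5 of the highest 10, linc-35, linc-1, linc-44, linc-9 and linc-2, had means of 28.9, 28.7, 27.9, 20.5 and 15.8. Several of these levels rest on few reads from short transcripts. The linc-6 transcript is 174 bases long and had a mean of 224 estimated counts, against 3993 for tts-1, and linc-2 at 127 bases had a mean of 4.06 estimated counts. The exon of linc-6 also overlaps F52D2.14 on the same strand, and that of linc-2 overlaps pcf-11.

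Libraries of the first collection held 25.6 M to 32.9 M counts each (M, counts divided by 1e6), and those of the second collection 54.3 M to 72.3 M. Levels are therefore given below as CPM, counts per 1e6 counts of the effective library size. Fold changes, standard errors (SE) and adjusted p-values come from edgeR's quasi-likelihood F test with Benjamini-Hochberg adjustment over all 16006 genes tested. A gene is said to have risen or fallen where the adjusted p was under 0.05. Summed TPM of 15 sperm genes was 3730 to 3802 in the water samples and 3441 to 3555 in the ascr#10 samples at 50 h. At 58 h it was 389 to 415 and 250 to 265 in the first collection, and 406 to 425 and 289 to 295 in the second. Summed TPM of 10 oocyte genes was 2298 to 2436 at 50 h and 3969 to 4320 at 58 h. That of 12 genes of the embryo was 15 to 18.5 at 50 h. At 58 h the embryo sum was 31.8 to 34.0 in the first collection and 18.2 to 22.1 in the second. Summed TPM of 5 genes of male somatic tissue was 0.366 to 1.43 over all samples. No marker of these 4 lists was at 0 in all samples. With ascr#10, 4 of 15 sperm genes fell at 50 h, and 9 and 10 fell at 58 h in the first and second collections, and 7, 0 and 9 of 10 oocyte genes rose. With age, all 15 sperm genes fell and all 10 oocyte genes rose in both comparisons. Their part in the results below was not tested, and in whole worms fewer cells of a type cannot be told apart from less RNA per cell.

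The first question was whether exposure to ascr#10 went with a change in these RNAs. tts-1 was lower with ascr#10 at both ages and in both collections, and fell by 27.9% at 50 h. At 58 h it fell by 31.3% in the first collection, whereas in the second it fell by 19%. linc-7 rose at 50 h and in the second collection at 58 h. No other well measured gene passed the test for exposure, and the few low genes that did are given after these.

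tts-1 (WBGene00006650) is a gene of 1 exon and 711 bases on the minus strand of chromosome X, at X:1504131-1504841 in WBcel235, and no annotated gene overlaps it. At 50 h its levels were 136, 137 and 154 CPM in water and 100, 104 and 103 CPM with ascr#10. These were 3859, 4714 and 4189 estimated counts against 2909, 2948 and 3172. The lowest water sample lay above the highest ascr#10 sample. The log2 fold change was -0.47 (SE 0.039, adjusted p = 7.75e-11, edgeR, n = 3 per group).

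At 58 h in the first collection, tts-1 levels were 149, 145 and 148 CPM in water and 101, 96.7 and 105 CPM with ascr#10. In the second collection they were 85.8, 89.3 and 88.0 CPM in water and 67.5, 72.5 and 73.0 CPM with ascr#10. The groups did not overlap in either collection. The log2 fold change was -0.54 for the first (SE 0.039, adjusted p = 9.73e-12, edgeR) and -0.30 for the second (SE 0.037, adjusted p = 1.61e-07, edgeR). The fall was smaller in the second collection by 0.24 on the log2 scale (SE 0.054, adjusted p = 0.0028 for the difference, edgeR). The difference of the exposure effect between 50 h and 58 h in the first collection was -0.07 (SE 0.055, adjusted p = 0.607, edgeR).

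**Figure D1:**
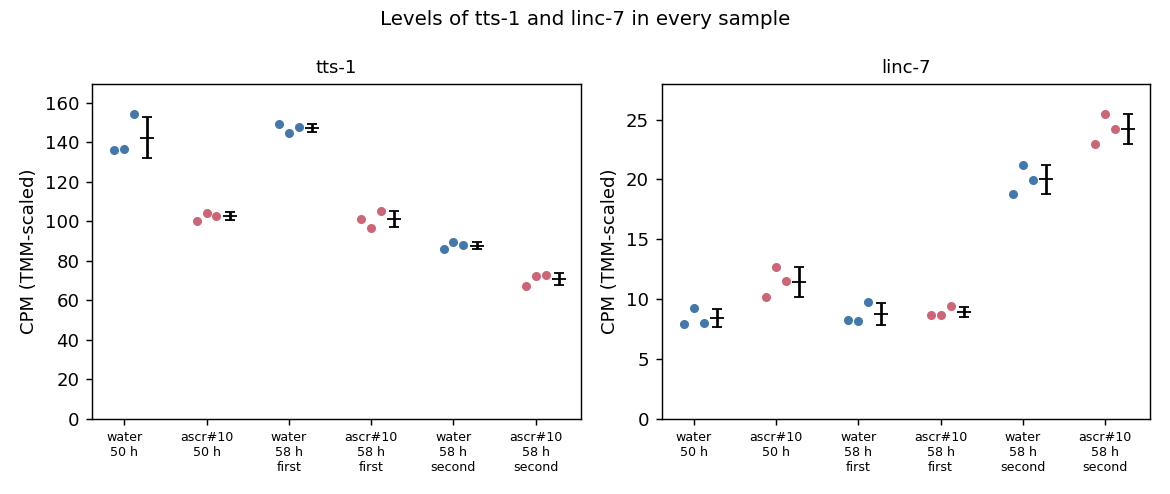
Levels of tts-1 and linc-7 in CPM (linear axes from 0) in each of the 18 samples, by age, collection and exposure; each point is a sample, and the black dash and bar are the mean and SD of 3. All tts-1 points with ascr#10 lie under those with water of the same age and collection, and linc-7 is highest in the second collection.

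In order of level, tts-1 was highest in water at 58 h in the first collection (147 ± 2.15 CPM, SD, n = 3) and in water at 50 h (142 ± 10.4), and these did not differ beyond their spread. The ascr#10 groups of the first collection followed at 102 ± 2.03 CPM for 50 h and 101 ± 4.22 for 58 h, again within their spread. Water and ascr#10 of the second collection were lowest at 87.7 ± 1.77 and 71.0 ± 3.05 CPM. Neither age difference of tts-1 passed the test: its log2 fold change from 50 h to 58 h was 0.05 in water (SE 0.038, adjusted p = 0.22, edgeR) and -0.02 with ascr#10 (adjusted p = 0.664, edgeR). The collections, by contrast, differed by -0.75 in water and -0.51 with ascr#10 on the log2 scale at 58 h (adjusted p = 1.68e-17 and 8.83e-13, edgeR), a larger difference in water than any exposure effect on this gene.

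The coding genes on either side of tts-1 gave smaller values. F09E10.1, 853 bases away, had exposure log2 fold changes of 0.34 at 50 h, and 0.11 and 0.14 in the earlier and later 58 h collections, none of them past the threshold. toca-1, 5640 bases away on the other side, had -0.08, 0.13 and -0.16, of which the last passed (adjusted p = 0.012, edgeR). Its product acts in actin assembly and endocytosis. The level of toca-1 was 26.1 CPM in water at 50 h, and that of F09E10.1 was 1.69 CPM.

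linc-7 (WBGene00219609, X:16002599-16003728, plus strand, 1 exon of 1130 bases) moved the other way. At 50 h it had 225, 320 and 218 estimated counts in water and 294, 358 and 354 with ascr#10, or 8.41 ± 0.752 and 11.4 ± 1.27 CPM (SD, n = 3). The log2 fold change was 0.43 (SE 0.086, adjusted p = 0.000213, edgeR), and the CPM ranges did not overlap. In the first collection at 58 h the levels were 8.74 ± 0.903 and 8.93 ± 0.442 CPM, with a log2 fold change of 0.03 (adjusted p = 0.905, edgeR). The second collection had 1242, 1496 and 1210 counts in water and 1265, 1343 and 1618 with ascr#10, or 20.0 ± 1.20 and 24.2 ± 1.25 CPM. There the log2 fold change was 0.27 (SE 0.057, adjusted p = 0.000169, edgeR) and the ranges did not overlap. With limma on log2(TPM + 1) it was 0.23 and on log2(TPM + 0.1) 0.24, and both missed the threshold (adjusted p = 0.0616 and 0.0707). The difference of the linc-7 effect between the ages was -0.40 (SE 0.126, adjusted p = 0.0526, edgeR) and passed when length-scaled counts were used. linc-7 lies within C09G1.4 on the opposite strand, without shared exons, and C09G1.4 had exposure log2 fold changes of 0.14, 0.02 and 0.03.

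Over the tested genes, exposure calls were few. At 50 h, 12.9% of all 16006 genes passed the test (7.7% higher and 5.2% lower), against 2 of the 49 tested here (4.08%), linc-7, which rose, and tts-1, which fell. At 58 h in the first collection, 8.05% of all genes passed (2.84% higher and 5.22% lower), against 2 of 49 (4.08%), tts-1 and linc-82, both lower. In the second, deeper collection 31.7% of all genes passed (15.3% higher and 16.4% lower), against 6 of 49 (12.2%), of which linc-7 and linc-20 rose and tts-1, linc-36, linc-37 and linc-45 fell. The median log2 fold change of the 49 was -0.06, -0.16 and -0.04 in these comparisons, against 0.00 over all genes in each. Among the 10 well measured genes alone, 2 passed at 50 h (20.0%). At 58 h, 1 passed in the earlier collection (10.0%) and 2 in the later one (20.0%). These shares rest on 1 or 2 of 10 genes, too few to be ranked against the shares of all genes. The other 39 tested genes had lower counts, and the part of low counts in the shares of the 49 was not tested. For the difference of the exposure effect between ages, none of the 49 passed by edgeR or by DESeq2. Of all genes, 4.74% passed by edgeR (0.931% higher and 3.8% lower). An unadjusted p under 0.05 (edgeR) was found for 6 of the 49, against 15.5% of all genes.

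**Figure D2:**
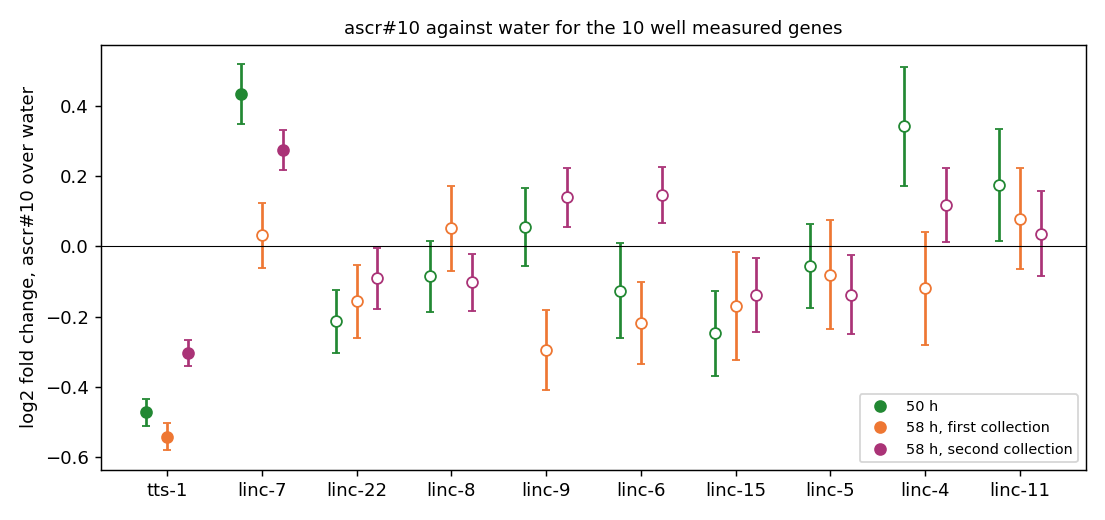
Log2 fold change of ascr#10 over water for the 10 well measured genes in each of the 3 exposure comparisons, with bars of 1 SE, from the edgeR fit; filled points passed the test and open points did not. tts-1 is below 0 in all 3, and linc-7 is above 0 by more than its bar at 50 h and in the second collection.

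The low genes that passed for exposure were named after their values were seen. linc-82 (III:3664858-3667041, plus strand) had 10, 7 and 6 estimated counts in water and 3, 2 and 1 with ascr#10 at 58 h in the first collection, a log2 fold change of -1.97 (adjusted p = 0.0389, edgeR). In the second collection it had 8, 19 and 8 against 7, 6 and 2, and the value of -1.01 missed the threshold (adjusted p = 0.089, edgeR). Its call in the first collection was lost when only the groups compared were fitted, and without water replicate 2 or 3 or any 1 of the ascr#10 replicates. Its exons overlap those of C46F11.6 on the other strand, for which the exposure value there was 0.16. linc-36 had 10, 19 and 12 counts in water and 2, 7 and 6 with ascr#10 in the second collection, a log2 fold change of -1.24 (adjusted p = 0.0311, edgeR). linc-45 had 21, 18 and 8 against 4, 4 and 6 there, and linc-37 had 36, 28 and 31 against 13, 17 and 12. The exons of linc-37 overlap those of the coding gene zip-2 on the same strand, so its counts are uncertain. linc-20 had 67.6, 62 and 57.3 in water and 76.3, 75.3 and 91.7 with ascr#10, a rise of 0.55 on the log2 scale (adjusted p = 0.0163, edgeR). Without water replicate 2 of the second collection, linc-20 and linc-36 were not called, and without water replicate 1 linc-37 and linc-45 were not. Without water replicate 3, ascr#10 replicate 1 or ascr#10 replicate 3, linc-36 and linc-37 were not. With DESeq2 in place of edgeR, 3 genes passed in the second collection: tts-1, linc-7 and linc-20.

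The DAF-16 targets and other long noncoding RNAs were read beside tts-1. Of 15 genes known to be induced by DAF-16, 12 were tested. At 50 h, where 12.9% of all genes passed, none of the 12 rose and 4 fell (33.3%). These were the catalases ctl-1 (-0.17 on the log2 scale) and ctl-2 (-0.18), the glyoxylate cycle enzyme icl-1 (-0.51) and the desiccation-related gene lea-1 (-0.15). Of those that did not pass, hsp-16.2, mtl-2, hsp-12.6, sod-3, hsp-12.3 and sip-1 were above 0 (0.46, 0.29, 0.26, 0.23, 0.17 and 0.08). mtl-1 and dod-3 were below 0 (-0.43 and -0.01). sod-3 passed in no exposure comparison. At 58 h in the first collection 5 of 12 passed (41.7%), against 8.05% of all genes: the metallothionein gene mtl-2 rose by 0.32 and ctl-1, dod-3, icl-1 and lea-1 fell, with dod-3 at -0.63 and icl-1 at -0.35. In the second collection 7 of 12 passed (58.3%), against 31.7% of all genes: sip-1 rose by 0.19 and 6 fell, among them dod-3 at -0.54 and icl-1 at -0.34. The median of the 12 was 0.03 at 50 h and -0.20 and -0.28 at 58 h in the first and second collections, against 0.00 over all genes in each.

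Other long noncoding RNAs with a gene name (rncs-1, lep-5, tts-2, sls-1.1 and the anr genes) numbered 61 in the tables, and 10 were tested. tts-2, which shares part of its name with tts-1, had 30.9 CPM in water and 25 CPM with ascr#10 at 50 h and fell by 0.31 on the log2 scale (adjusted p = 0.000998, edgeR). At 58 h it fell by 0.87 on the log2 scale in the first collection (adjusted p = 0.00245, edgeR), and was -0.10 in the second (adjusted p = 0.67, edgeR). lep-5, which acts in the timing of the change from juvenile to adult, had -0.02 at 50 h and -0.02 at 58 h in the first collection, and fell by 0.16 in the second (adjusted p = 0.000156, edgeR). rncs-1, whose RNA inhibits Dicer in the worm, passed in no exposure comparison, and anr-8 rose by 0.31 in the second collection.

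The second question was how the RNAs differed between 50 h and 58 h within the first collection. Well measured genes moved in both directions and by less than 2-fold: linc-6, linc-11 and, in water, linc-4 rose, whereas linc-5, linc-8, linc-15 and linc-22 fell. The large changes were in genes with few counts: linc-12, linc-16, linc-121 and linc-169 went from near 0 or low counts upward, and linc-36, linc-66, linc-82 and linc-89 went down. Of the 49 tested genes, 9 rose and 16 fell in water, where 79.9% of all genes passed (37.5% higher and 42.4% lower). With ascr#10, 6 rose and 18 fell, where 80.9% of all genes passed (37% higher and 43.9% lower). Among the 10 well measured genes, 7 passed in each comparison (70.0%). The water and ascr#10 comparisons share no sample. In both, 20 genes passed, 6 higher and 14 lower, with the same sign in each. These were 80.0% of the water calls and 83.3% of the ascr#10 calls. The matching shares over all genes are not given here, so this overlap is not a result particular to these genes. The median log2 fold change of the 49 was -0.08 in water and -0.25 with ascr#10, against -0.10 and -0.13 over all genes, and it was the same with genes at 0 in a group set at their bound.

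**Figure D3:**
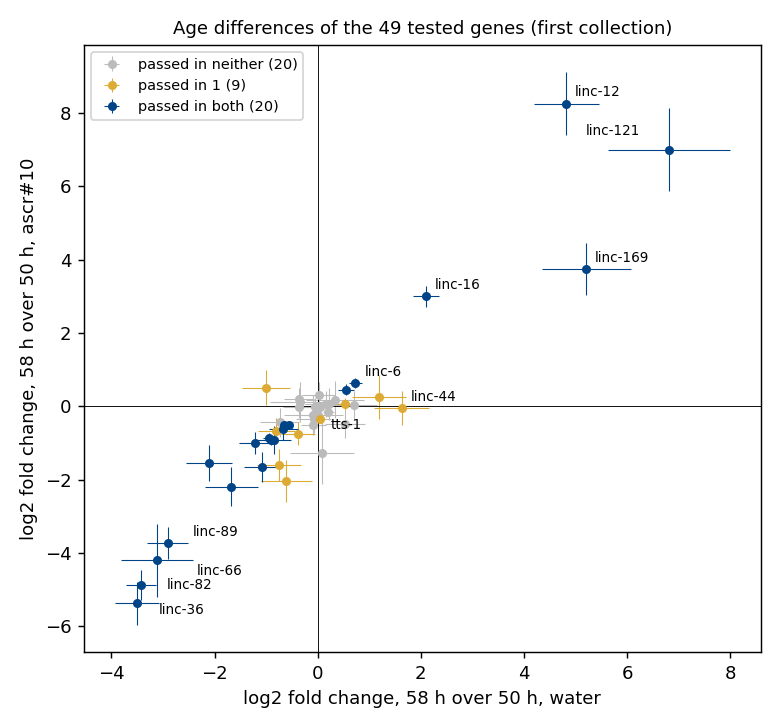
Log2 fold change from 50 h to 58 h in water (x axis) against ascr#10 (y axis) for the 49 tested genes of the first collection, with bars of 1 SE; colours mark genes that passed in both comparisons, in 1 or in neither. The 20 genes that passed in both have the same sign in each; the fitted values of linc-12 and linc-121 depend on the prior count, because a group is at 0.

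Among the well measured genes that rose, linc-6 (X:1982710-1982883, minus strand) had 76, 105 and 89 estimated counts in water at 50 h and 133, 141 and 125 at 58 h. In the ascr#10 groups it had 82, 81 and 79, then 131, 114 and 117. The ages did not overlap in CPM in either comparison. The log2 fold change was 0.73 in water (SE 0.123, adjusted p = 4.73e-07, edgeR) and 0.64 with ascr#10 (adjusted p = 1.28e-05, edgeR). meg-3, which encodes a germ granule protein, is the nearest coding gene to the right, 3586 bases away, and rose by 1.09 and 1.03. F52D2.12, closer on the left at 1768 bases, rose by 1.28 and 1.19. The pseudogene fbxa-46 overlaps linc-6 on the other strand, without shared exons. It rose by 4.80 and 3.75, from 0.0454 to 1.32 CPM in water. How far reads of fbxa-46 entered the linc-6 count was not tested.

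linc-11 (II:3373169-3374185, minus strand) had 61, 77 and 48 counts in water at 50 h and 85, 73 and 84 at 58 h, and rose by 0.55 in water (adjusted p = 0.00115, edgeR) and 0.45 with ascr#10 (adjusted p = 0.00479, edgeR). linc-4 (II:6268939-6269516, plus strand) went from 1.70 ± 0.117 to 2.46 ± 0.168 CPM in water (SD, n = 3), a log2 fold change of 0.53 (adjusted p = 0.00386, edgeR). With ascr#10 linc-4 was at 2.17 ± 0.0641 and 2.29 ± 0.350 CPM, a value of 0.07 that missed the threshold (adjusted p = 0.705, edgeR).

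Among those that fell, linc-15 (X:11991484-11991933, minus strand) had 171, 186 and 175 counts in water at 50 h and 79, 81 and 88 at 58 h. The ascr#10 samples had 154, 124 and 162, then 87, 61 and 85. Every 58 h sample lay below every 50 h sample. The log2 fold changes were -0.94 (adjusted p = 9.51e-09, edgeR) and -0.86 (adjusted p = 1.89e-07, edgeR). Its neighbour C49F5.6, 192 bases away, went the other way, with 1.22 in water and 1.15 with ascr#10. C49F5.7, 2851 bases away on the other side, fell as linc-15 did, with -0.90 and -1.14.

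linc-5 (X:14018610-14019376, plus strand) fell from 5.27 ± 0.211 to 2.83 ± 0.597 CPM in water and from 5.07 ± 0.674 to 2.66 ± 0.316 with ascr#10 (SD, n = 3), with log2 fold changes of -0.90 and -0.93 (adjusted p = 3.97e-08 and 2.47e-08, edgeR). Its exons overlap C04C11.23 on the same strand. linc-8 (II:2501838-2503802, minus strand) fell by 0.65 and 0.51 on the log2 scale (adjusted p = 7.12e-07 and 4.33e-05, edgeR). linc-22 (X:9069138-9073735, plus strand) fell by 0.56 and 0.51 (adjusted p = 3.74e-07 and 5.70e-06, edgeR). In linc-5, linc-8, linc-15 and linc-22 the ages did not overlap in either comparison. linc-7 fell with age with ascr#10, by 0.36 (adjusted p = 0.000206, edgeR), and had 0.04 in water (adjusted p = 0.664, edgeR). linc-9 (I:3703542-3704956, plus strand) had 0.20 and -0.15 and did not pass in either.

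**Figure D4:**
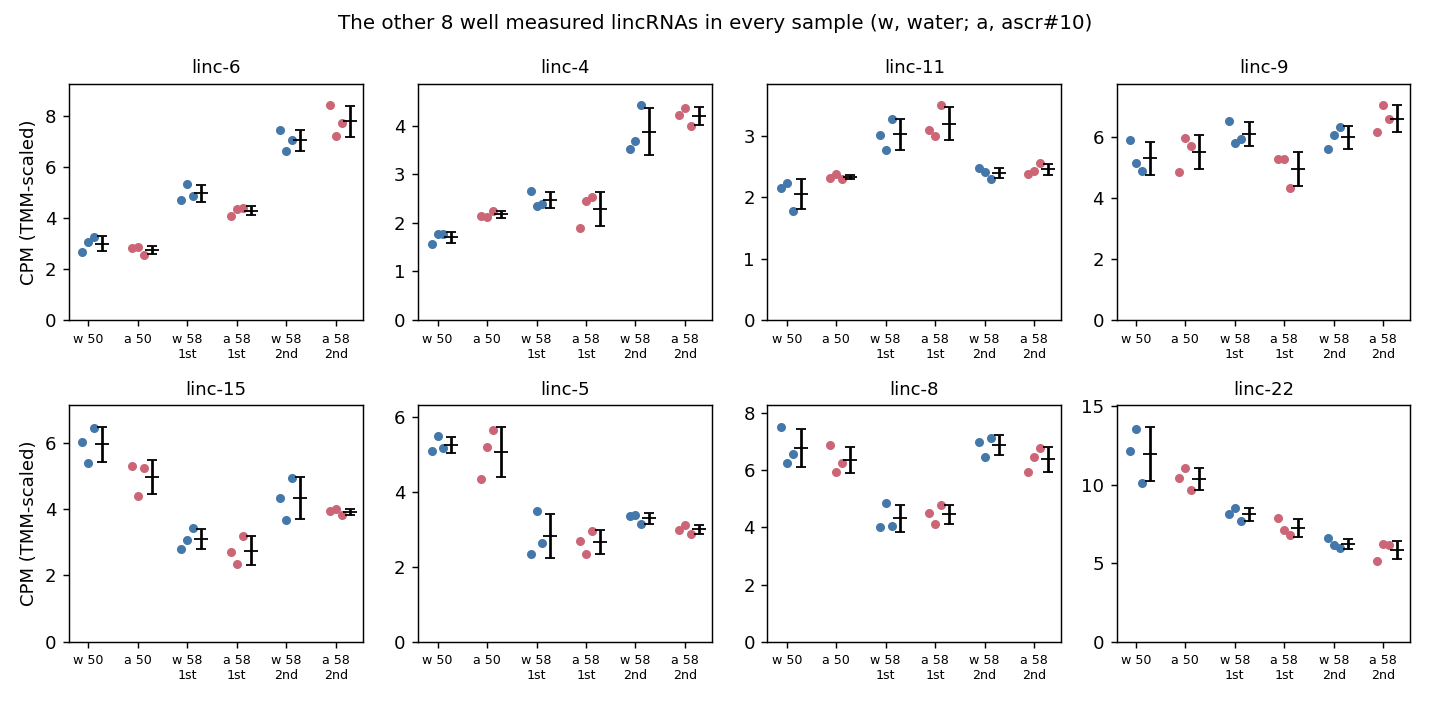
Levels of well measured linc genes in CPM (linear axes from 0, one panel per gene) in each sample, by age, collection and exposure; points are samples, and the black dash and bar are the mean and SD of 3. linc-6 rises and linc-5, linc-8, linc-15 and linc-22 fall from 50 h to 58 h in the first collection, by less than 2-fold.

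The low genes with large age differences were chosen after their values were seen, apart from linc-12, which is among the highest by TPM. linc-12 (II:2681408-2681658, minus strand) had 2, 0 and 0 counts in water at 50 h and 18, 22 and 17 at 58 h. With ascr#10 it had 0 in all 3 samples at 50 h and 30, 21 and 30 at 58 h. In water 58 h exceeded 50 h by a ratio of 32.0 (95% counting interval 8.46 to 271). With ascr#10 it was at least 28.1-fold higher, set against a floor of 3 counts over the group. Its neighbour F34D6.1, 190 bases away, also rose, from 0.00 to 2.87 CPM in water.

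linc-121 was likewise at 0 in all 6 samples at 50 h and had 10, 10 and 8 counts in water and 14, 6 and 14 with ascr#10 at 58 h. It was at least 10.5-fold higher in water and at least 11.8-fold higher with ascr#10 on the same floor. linc-169 had 1.33 counts over the water group at 50 h and 42.9 at 58 h, a ratio of 36.2 (8.21 to 1951), and 3.18 against 42.2 with ascr#10, a ratio of 13.8 (4.65 to 73.4). Its exons overlap mtch-1 on the other strand, which was at 215 CPM in water at 50 h and moved by 0.11 with age in water. On the same strand they overlap the pseudogene F43E2.12, with a mean of 1.68 estimated counts over the 18 samples. F43E2.12 had 0.053 ± 0.091 CPM in water at 50 h and 0.24 ± 0.22 at 58 h (SD, n = 3). With ascr#10 it had 0 and 0.085 ± 0.15 CPM. How far reads of F43E2.12 or mtch-1 entered the linc-169 count was not tested.

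linc-16 (II:1820242-1820946, minus strand) had 14, 11 and 15 counts in water at 50 h and 58, 58 and 38 at 58 h. With ascr#10 it had 8, 9 and 5, then 70, 48 and 54. The log2 fold changes were 2.10 and 3.00 (adjusted p = 1.44e-10 and 5.17e-14, edgeR). It lies among F-box genes and shares exon bases with fbxa-3 on its own strand and fbxc-19 on the other. fbxc-19 rose by 4.31 in water and 3.93 with ascr#10, and fbxb-10, 1842 bases away, by 6.83 and 5.99. fbxa-3 had -0.10 and -0.54, neither past the threshold (adjusted p = 0.767 and 0.116, edgeR), and math-41, 3683 bases away on the other side, fell by 0.50 and 0.47. How far reads of fbxc-19 entered the linc-16 count was not tested.

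In the other direction, linc-82 had 85, 119 and 77 counts in water at 50 h and 10, 7 and 6 at 58 h. The ascr#10 samples had 74, 49 and 69, then 3, 2 and 1. The log2 fold changes were -3.42 and -4.88 (adjusted p = 2.30e-15 and 5.40e-16, edgeR). The overlapping C46F11.6 moved by -0.41 and -0.06.

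linc-36 (IV:5380408-5381217, minus strand) had 41, 42 and 34 counts in water at 50 h and 4, 2 and 3 at 58 h, a log2 fold change of -3.50 (adjusted p = 1.81e-10, edgeR). With ascr#10 it had 38, 27 and 32, then 1, 0 and 1, so that 50 h exceeded 58 h by a ratio of 46.6 (13 to 391). elo-5, a fatty acid elongase gene 3291 bases away, moved by -0.98 and -1.36. linc-89 fell by 2.91 and 3.74 on the log2 scale (adjusted p = 3.04e-09 and 4.13e-11, edgeR), and its exons overlap C04C3.7 on the same strand. linc-66 had 15, 14 and 12 counts in water at 50 h and 4, 0 and 0 at 58 h. The sperm markers fell over the same interval, with 15 of 15 lower in each age comparison and a median log2 fold change of -3.34 in water and -3.90 with ascr#10; the part of sperm in the fall of these linc genes was not tested.

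**Figure D5:**
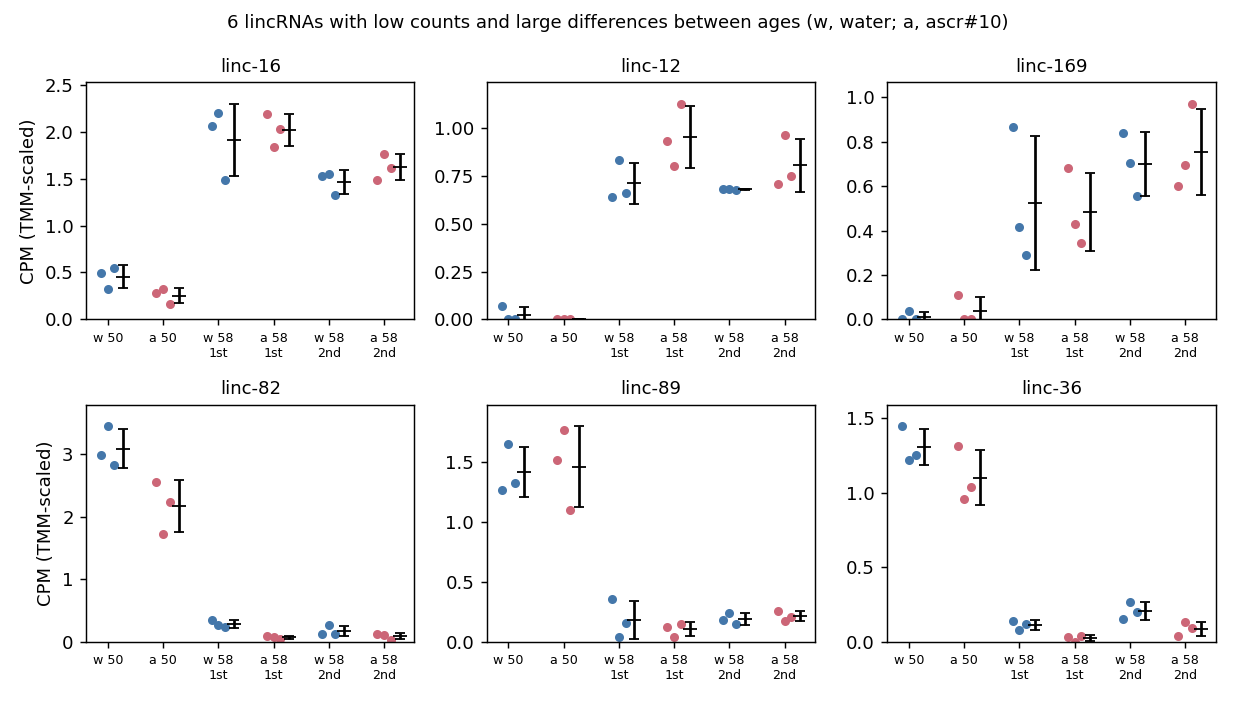
Levels of 6 linc genes with low counts and large age differences, in CPM (linear axes from 0, w for water and a for ascr#10), in each sample by age and collection; points are samples, and the black dash and bar are the mean and SD of 3. linc-12 and linc-169 are at or near 0 at 50 h, and linc-36, linc-82 and linc-89 are highest at 50 h.

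The other named long noncoding RNAs moved with age as follows. tts-2 had 30.9 CPM at 50 h and 1.87 CPM at 58 h in water and fell by 4.04 on the log2 scale (adjusted p = 8.79e-38, edgeR). With ascr#10 it fell by 4.60. lep-5 fell by 1.31 in each comparison, from 98.1 to 39.5 CPM in water. rncs-1 had 0.03 in water and fell by 0.42 with ascr#10 (adjusted p = 0.0487, edgeR). Of the 10 tested, 2 fell in water and 3 with ascr#10, and 0 rose in either comparison. These were 20.0% and 30.0% of the 10, against 79.9% and 80.9% of all genes. No tested anr gene passed in either. In the DAF-16 list, 6 of the 12 tested genes rose and 3 fell in water, and 4 rose and 3 fell with ascr#10. These are 75.0% and 58.3% of the list, against 79.9% and 80.9% of all genes.

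At 58 h the collections, which differ in both the worms and the sequencing, could be compared within each exposure. In water 12 of the 49 genes were higher in the second collection and 3 lower (30.6%), where 58.1% of all genes passed (30.8% higher and 27.3% lower). With ascr#10, 19 were higher and 3 lower (44.9%), where 55.5% of all genes passed (30.2% higher and 25.4% lower). Among the 10 well measured genes, 8 passed in water (80.0%) and 9 with ascr#10 (90.0%). Of the 10 tested genes of the embryo list, 7 were lower in the second collection in water and 9 with ascr#10, and 0 were higher. Of 10 oocyte genes, 8 were higher and 1 lower in water, and 9 higher and 0 lower with ascr#10. Of 15 sperm genes, 7 were higher and 3 lower in water, and 8 higher and 0 lower with ascr#10. The part of embryos, oocytes or sperm in the differences between collections was not tested. The median log2 fold change of the 49 was 0.30 and 0.50, against 0.01 and 0.02 over all genes on the count scale. On the TPM scale the median over all genes was -0.15 in each of the collection comparisons, so directions there are relative to the scaling.

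linc-7 was 2.29-fold higher in the second collection in water and 2.72-fold higher with ascr#10 (log2 1.20 and 1.44, adjusted p = 3.85e-20 and 9.10e-24, edgeR), while tts-1 was lower. linc-6 rose by 0.50 and 0.87, linc-4 by 0.64 and 0.88, linc-8 by 0.67 and 0.52, and linc-15 by 0.48 and 0.51. On the TPM scale linc-15 did not pass in either. linc-22 was lower, at -0.38 and -0.32, and linc-11 at -0.33 and -0.38. The linc-22 call with ascr#10 was lost without ascr#10 replicate 1 of the first collection (-0.24). That of linc-11 with ascr#10 was lost without ascr#10 replicate 3 of the first collection (-0.31). In water it was lost without water replicate 1 or 3 of the first collection or 2 or 3 of the second (-0.33 to -0.27), and without the filter on low counts. linc-9 rose with ascr#10, by 0.41 (adjusted p = 0.000487, edgeR), but not past the threshold on the TPM scale. C09G1.4, in which linc-7 lies, had -0.05 and -0.03. New worms and new sequencing cannot be told apart in these differences.

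The exposure effect itself differed between the collections in 3 of the 49 genes (6.12%), where 11.1% of all genes passed (4.34% higher and 6.8% lower): tts-1, linc-9 and linc-20. Of these, tts-1 and linc-9 are among the 10 well measured genes, of which 20.0% passed. linc-9 had 6.10 ± 0.398 CPM in water and 4.97 ± 0.561 with ascr#10 in the first collection (SD, n = 3), a value of -0.30 (adjusted p = 0.104, edgeR). In the second it had 6.0 ± 0.372 and 6.61 ± 0.435, a value of 0.14 (adjusted p = 0.212, edgeR). The difference was 0.43 (SE 0.141, adjusted p = 0.0344, edgeR). Neither exposure effect passed by itself, and the difference was lost without the filter on low counts.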

How the data were processed

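Per the file headers, the deposited gene tables hold salmon's expected counts (estimated counts that need not be whole), not normalized. Of these values 95.2% were whole, and all were rounded before testing. The deposited length-scaled expected counts and the deposited TPM values, per the file headers, served as alternatives and, for TPM, for levels between genes. The build, the annotation, the version of salmon and its strand option: not given in the sources used here. Coordinates are from Ensembl release 115 (WBcel235), by gene identifier, which held all 171 genes.

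Genes passing filterByExpr with its minimum set to a count of 10 (16006 genes) were scaled by TMM and fitted with 6 group means over all 18 samples, in edgeR 4.0.16 and R 4.3.3. Quasi-likelihood F tests were adjusted by Benjamini-Hochberg over all genes, at 0.05, and the procedure was tested on simulated data. DESeq2 1.42.0 and limma 3.58.1, on log2(TPM + 1) and log2(TPM + 0.1), were alternatives. P-values rest on the spread between the 3 samples of a group, estimated over all 6 groups together and with other genes drawn on. Intervals on low counts are exact at 95% and cover counting error only.

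The members and lists were chosen with earlier results of these data known. Named by rule were tts-1, the 10 genes highest in mean TPM, and, per age or exposure comparison, up to 10 in each direction with a mean count of 100 or more that passed the test without overlap of groups; others are said to have been chosen after their values were seen. Collection comparisons were added after the data were seen.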

Additional observations from a re-analysis of the deposited data

Results flagged for a closer look

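The exposure effect of 3 genes differed between the collections at 58 h by the test of the difference itself. For tts-1 the difference, second minus first collection, was 0.24 on the log2 scale (SE 0.054, adjusted p = 0.0028, edgeR). tts-1 was lower with ascr#10 in every sample of each collection. For linc-9 it was 0.43 (SE 0.141, adjusted p = 0.0344, edgeR), and for linc-20, chosen after its values were seen, 0.95 (SE 0.324, adjusted p = 0.0463, edgeR). linc-20 had -0.40 in the first collection (adjusted p = 0.444, edgeR) and rose by 0.55 in the second. Without water replicate 2, ascr#10 replicate 2 or ascr#10 replicate 3 of the second collection, tts-1 alone of the 3 passed, and other single samples, when left out, cost linc-9 or linc-20 its call.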

How the results depend on the processing

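Of 643 values for single genes under alternatives, 608 kept direction and side of the threshold, 35 kept direction but missed it, and 0 reversed. They are alternatives to 42 results, each of a gene named by rule that had passed the test. Genes chosen after their values were seen, and results that had missed the threshold, are not in this count. The fall of tts-1 with ascr#10 passed under every alternative run, from -0.54 to -0.41 at 50 h, -0.57 to -0.42 at 58 h in the first collection and -0.42 to -0.27 in the second. Counts of genes called moved by over 1.5 times as follows, and the cause was not tested unless given. At a minimum count of 50, which left 15 of these genes, 9 passed for age in water, 9 for age with ascr#10, 2 for exposure in the second collection and 11 between collections with ascr#10. With limma on log2(TPM + 1), 6 passed at 50 h (the others being linc-16, linc-44, linc-66 and linc-82) and 1 (linc-44) for the difference between ages. With log2(TPM + 0.1), 4 passed at 50 h, 4 at 58 h in the first collection, 3 in the second and 1 for the difference between ages. DESeq2 called 3 in the second collection. Fitting only the groups compared left 1 (tts-1) at 58 h in the first collection, and an additive fit over ages and collections gave 5. Length-scaled counts gave 1 (linc-7) for the difference between ages, and no filter on low counts gave 1 (tts-1) for the difference between collections. Leaving out each replicate in turn gave 23 to 26 and 21 to 26 for age in water and with ascr#10, 2 to 3 at 50 h, 1 to 2 and 4 to 7 at 58 h in the first and second collections, 0 to 1 for the difference between ages, 1 to 3 for that between collections, and 13 to 18 and 20 to 22 between collections in water and with ascr#10. The call of linc-82 in the first collection was lost without any of 5 samples, water replicates 2 and 3 and ascr#10 replicates 1, 2 and 3. The median log2 fold change of the 10 well measured genes alone (mean count of 100 or more) for age with ascr#10 was -0.25, and -0.09 with the limit at 50. For the difference between collections it was 0.15, and 0.24 with the limit at 200. Replicate numbers did not pair samples: over 21 same-numbered pairs the correlations of deviations were -0.046 to 0.035. With a replicate block, 24 and 24 genes passed for age in water and with ascr#10, 2, 2 and 6 for exposure, 1 (linc-7) for the difference between ages, 2 between collections for the effect, and 12 and 15 between collections. Genes with few counts limit what can be seen: 122 of the 171 were not tested.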
